A study of Ovis aries with 30 samples.

Results

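Lung and kidney of adult sheep (Ovis aries) were compared gene by gene. The 10 arrays of this comparison, 5 of adult lung and 5 of adult kidney, were chosen by the tissue and age code in their titles from the 30 arrays of a study that also sampled both organs on fetal day 90 and 10 weeks after birth. Total RNA from frozen tissue was hybridised to an Affymetrix bovine expression array, and values are log2 expression of probe sets, so a difference of 1 is a 2-fold difference. The adult lungs carry the numbers AD-204, AD-286, AD-287, AD-297 and AD-299 and the adult kidneys AD-432, AD-434, AD-441, AD-442 and AD-444, so the titles give no animal that contributed both organs. Values of single arrays are given below in these orders. The labels give no breed, sex, exact adult age, treatment or genotype, and do not say which region of either organ was sampled. Replicates are called biological in the series' design text. Beyond that, standard errors (SE), intervals and p-values measure the spread between samples within each organ and age. That spread is pooled over all 30 arrays unless fewer are named. It can be larger or smaller than the spread of the 10 adult arrays alone. For BBOX1 below it is larger. For LTF, BOLA-DQA1 and IGF2 it is smaller, so their standard errors and p-values may be too low for these arrays. As numbered, no adult animal has both organs, so organ and animal cannot be told apart in adults.

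The lung exchanges gas across a thin sheet of flat type I alveolar cells that lies against capillaries. Type II alveolar cells make surfactant, the lipid and protein film that keeps alveoli open, while ciliated and secretory cells line the airways and macrophages patrol the air spaces. The kidney filters blood in glomeruli and recovers most of the filtrate in the proximal tubule, an epithelium rich in mitochondria and carriers that also makes glucose. The loop of Henle, distal tubule and collecting duct then set the salt, acid and water of the urine.

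The array names 9155 genes by a single symbol, each represented here by its brightest probe set, and the values of the 10 arrays ran from 2.56 to 15.22. Medians of the 10 arrays lay between 6.57 and 6.77. Across genes, arrays of 1 organ correlated at 0.987 or higher in lung and 0.980 or higher in kidney, against 0.876 to 0.896 between organs. The median standard deviation of a gene was 0.177 in lung and 0.187 in kidney. Kidney AD-444 stood apart from the other kidneys: 435 genes (4.75%) lay far from the 4 other kidneys there, against 43 to 65 genes in each of those. The mean level of its ribosomal, proteasome, splicing and oxidative phosphorylation genes was the lowest of the 5 kidneys. XIST, a transcript of the inactive X chromosome, read 11.41 to 11.93 in all 10 arrays. The array's probes are bovine, so a sheep transcript whose sequence differs can read low whatever its level, and levels are compared only within a gene. No detection call was used here, so a difference against readings near the bottom of the scale may understate the true one and its exact size carries little meaning. A gene near the bottom in both organs may differ without being called. Dimmer probe sets of a gene often showed smaller differences, and some are given beside the brightest.

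Of the 9155 genes, 4853 (53.0%) differed between the organs at an adjusted p of 0.05 or less in limma's moderated test. They divided into 2689 genes (29.4%) higher in lung and 2164 (23.6%) higher in kidney. The split depended on the scaling, since 44.8% of calls were higher in lung after centring arrays on their medians, against 55.4% here, while the median difference of all genes moved from 0.04 to -0.06. A difference above 2-fold passed its own test in 1018 genes (11.1%), 579 higher in lung and 439 higher in kidney. The 5 lungs and 5 kidneys did not overlap in 3849 genes (42.0%). Differences above 4 log2 units were called in 50 genes higher in lung and 79 higher in kidney. At the other end, 3276 genes (35.8%) had a 95% interval of the difference that lay within 0.5 log2 of 0. The 2 groups overlap, since 339 of these genes were also called, with small differences.

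**Figure D1:**
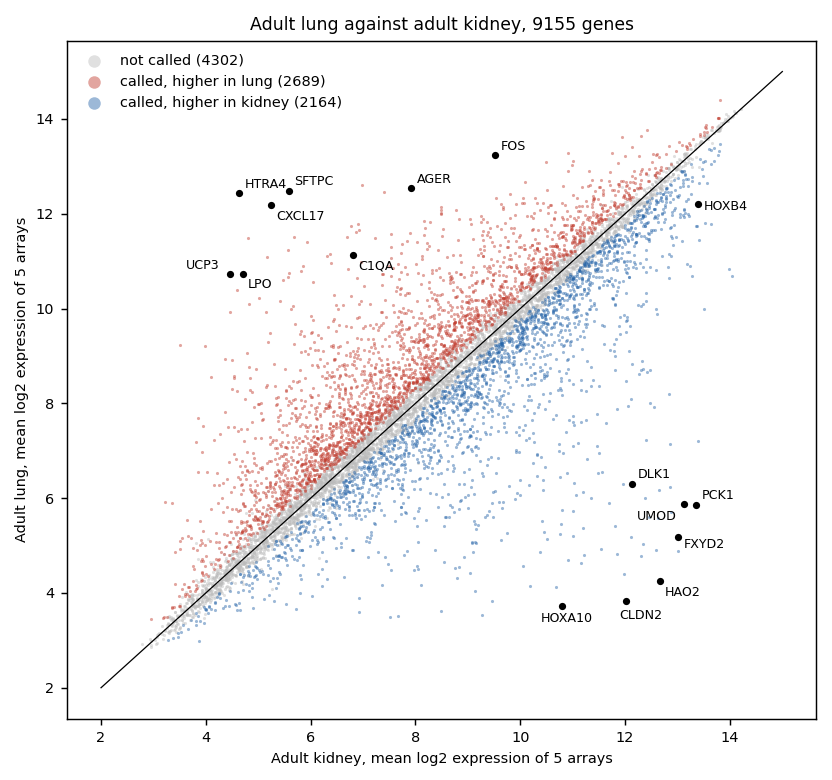
Mean log2 expression of the 5 adult lung arrays (vertical axis) against the mean of the 5 adult kidney arrays (horizontal axis) for 9155 genes, with the line of equality. Red points are the 2689 genes called higher in lung, blue points the 2164 called higher in kidney and grey points the others, and 16 named genes are marked in black. Of the marked genes, HAO2, CLDN2 and FXYD2 lie farthest below the line, and HTRA4, CXCL17 and SFTPC farthest above it.

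Genes of the gas-exchanging epithelium were higher in lung. Of 14 measured genes of type II cells and surfactant, 11 were called higher in lung and 0 higher in kidney, against 29.4% and 23.6% of all genes, with a median difference of 1.81 log2 against 0.04 over all genes. These shares of all genes are the ones to set beside each list count below. SFTPC, the small hydrophobic surfactant protein that marks type II cells, read 12.47, 12.45, 12.44, 12.50 and 12.57 in the lungs and 5.44, 5.81, 5.84, 5.34 and 5.49 in the kidneys. The lungs were nearly identical and far above every kidney, a difference of 6.90 log2 (SE 0.28, adjusted p 5.5e-18). SFTPD, a surfactant lectin that binds microbes, read 10.66, 10.69, 10.78, 10.60 and 10.61 in the lungs and 5.84, 5.66, 5.78, 5.55 and 5.04 in the kidneys, again with no overlap (difference 5.09, SE 0.16, adjusted p 2.4e-20). SFTPB, which spreads the lipid film, differed by 4.74 (SE 0.25) and SFTPA1, the other surfactant lectin on the array, by 3.04 (SE 0.14). LAMP3, a protein of the lamellar bodies in which surfactant is stored, averaged 8.54 ± 0.25 in lung and 4.53 ± 0.25 in kidney (SD, n = 5 each). ABCA3, the lipid pump of the same organelle, differed less, at 9.57 ± 0.28 against 8.73 ± 0.11 (difference 0.84, SE 0.12).

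Genes of type I cells and the capillaries beside them followed the same direction, with 9 of 14 measured members called higher in lung, 1 called higher in kidney and a median difference of 2.03. AGER, a receptor on the basal face of type I cells, read 12.50, 12.86, 12.07, 12.55 and 12.72 in the lungs and 7.82, 7.91, 7.87, 7.68 and 8.29 in the kidneys. No lung came near a kidney, and the difference was 4.63 (SE 0.25, adjusted p 4.8e-15). CAV1, the coat protein of caveolae, was higher by 3.51 (SE 0.28), HOPX, a homeodomain cofactor of alveolar cells, by 2.64 (SE 0.15) and the water channel AQP5 by 2.58 (SE 0.11). The 1 member higher in kidney was CA4, a membrane carbonic anhydrase known in both lung capillaries and proximal tubule, at 8.97 ± 0.14 against 8.03 ± 0.26 in lung. In tissue pieces such as these, fewer cells of a type and less RNA per cell cannot be told apart.

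Airway genes were also higher in lung and varied more between animals. Of 11 measured airway genes, 9 were called higher in lung and 0 in kidney, and of 7 genes of the ciliary axoneme, 6 were higher in lung and 1 in kidney. TFF3, a peptide secreted with mucus, read 10.88, 11.20, 11.58, 10.87 and 10.86 in the lungs and 4.68 to 5.41 in the kidneys (difference 5.90, SE 0.26). TPPP3 and CAPSL, which are known from ciliated cells, were higher by 4.58 (SE 0.30) and 3.71 (SE 0.25). Dimmer probe sets of CAPSL differed by 2.70 and 1.38. LTF, the iron-binding protein lactoferrin of secretions and neutrophils, read 6.31, 9.25, 11.59, 9.29 and 7.42 in the lungs, a spread of more than 5 log2 units, and 4.59 to 5.16 in the kidneys. All lungs still lay above all kidneys (difference 3.96, SE 0.64, adjusted p 7.0e-06), while a dimmer probe set of LTF differed by 0.21. LPO, the lactoperoxidase of airway fluid, read 11.77 in lung AD-287 and 10.30 to 10.63 in the other lungs, against 4.46 to 5.02 in kidney. Lung AD-287 also had the highest mean level of the airway list, 8.92 against 7.40 to 8.12 in the other lungs; the part of airway content in its values was not tested.

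Among called genes whose lungs and kidneys did not overlap, the 12 largest differences in favour of lung ran from 5.62 to 7.80 log2. Symbols that are only locus, clone or open reading frame identifiers were passed over. HTRA4, a secreted serine protease, headed them: it read 11.99, 12.54, 12.76, 12.46 and 12.44 in the lungs and 4.47, 4.84, 4.03, 5.10 and 4.73 in the kidneys, which lie near the bottom of the scale (difference 7.80 log2, SE 0.28, adjusted p 3.3e-19). CXCL17, a chemokine of mucosal surfaces, followed with 12.18 ± 0.17 against 5.25 ± 0.26, and PON1, the paraoxonase known best as a liver enzyme carried on blood lipoproteins, with 11.49 ± 0.28 against 4.80 ± 0.72. UCP3, a mitochondrial carrier known from skeletal muscle, read 10.25, 11.43, 10.69, 10.97 and 10.28 in the lungs and 4.20, 4.14, 4.82, 4.41 and 4.70 in the kidneys. The groups were far apart in UCP3 (difference 6.27, SE 0.20, adjusted p 5.1e-20). Of 17 striated muscle genes, 7 were called higher in lung and 3 in kidney. Skeletal actin, ACTA1, was higher in lung by 1.85 (SE 0.30), with lung AD-287 far above the others at 9.84, and muscle creatine kinase, CKM, by 1.78 (SE 0.13), with a dimmer probe set of CKM at 0.23. The fibre proteins MYL1 and MYH1 were not called: MYL1 averaged 3.84 in lung and 3.85 in kidney and MYH1 4.76 and 4.87, both named after their values were seen. Both genes read low in both organs, so the lack of a call says little about them. SPINK1, a secreted trypsin inhibitor, read 8.29, 10.00, 12.04, 11.89 and 9.71 in the lungs, a spread of several log2 units, and 4.21 to 4.95 in the kidneys (difference 5.79, SE 0.54). The others of the 12 were SFTPC, LPO and TFF3 above, HOATZ, the chemokine CCL3, the acute-phase protein SAA3 and CYP4B1, a cytochrome P450 known for activating lung toxins, which differed by 5.66 (SE 0.17).

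**Figure D2:**
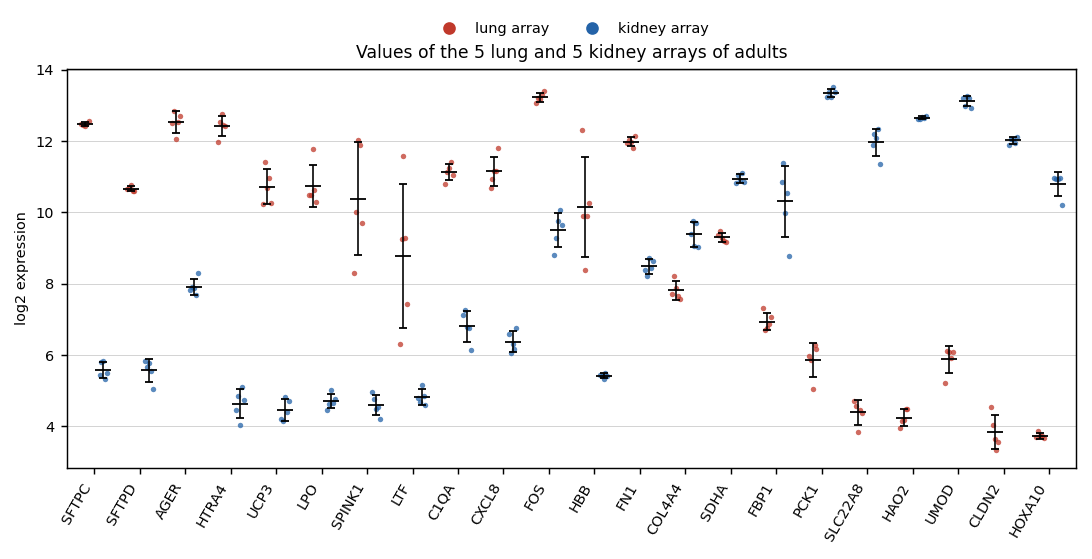
Log2 expression of 22 genes in the 5 adult lung arrays (red) and 5 adult kidney arrays (blue), with the mean as a dash and 1 SD as error bars. The lungs and kidneys of each gene do not overlap, the lungs spread widely for SPINK1, LTF and HBB, and the kidneys spread most for FBP1.

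Leukocyte genes were mostly higher in lung. Of 25 measured macrophage and monocyte genes, 24 were called higher in lung and 0 higher in kidney, with a median difference of 2.47. C1QA, a chain of the complement starter made by tissue macrophages, read 10.81, 11.15, 11.24, 11.41 and 11.04 in the lungs and 7.12, 7.25, 6.78, 6.75 and 6.13 in the kidneys. The lungs were tightly grouped above the kidneys (difference 4.32, SE 0.30, adjusted p 8.7e-13). FCGR2B, an inhibitory receptor for antibody, differed by 3.81 (SE 0.18). S100A8, a calcium-binding protein of neutrophils and monocytes, differed by 4.81 (SE 0.53), with kidney AD-441 at 7.98 and the other kidneys at 6.05 to 6.74. CXCR1, the neutrophil receptor for CXCL8, read 7.70 in lung AD-204 and 8.95 to 10.19 in the other lungs, against 3.63 to 4.36 in the kidneys. It had the highest difference of the mast cell, granulocyte and platelet list, which was less one-sided. Of 15 measured members, 8 were higher in lung, 1 was higher in kidney and 6 were not called, with a median of 0.67.

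Lymphocyte genes went the same way with smaller differences. T and NK cell genes gave 17 of 24 higher in lung and 0 higher in kidney (median 1.08), and B and plasma cell genes 10 of 12 and 0 (median 0.60). CD8A, the co-receptor of cytotoxic T cells, averaged 9.92 ± 0.39 in lung and 7.34 ± 0.27 in kidney (difference 2.58, SE 0.26). CD79A, part of the B cell receptor, was higher by 3.05 (SE 0.22), with lung AD-204 highest at 10.11 and the other lungs at 8.64 to 9.19. IGHM, the heavy chain of IgM, differed by 1.81 (SE 0.27). Of 22 genes of antigen presentation, 18 were higher in lung and 0 in kidney; PSMB8, a subunit of the immunoproteasome, differed by 2.09 (SE 0.17). BOLA-DQA1, a class II antigen chain, read 11.56, 11.15, 8.61, 11.68 and 11.39 in the lungs and 5.0, 5.54, 10.55, 7.70 and 10.22 in the kidneys. Its groups overlapped, through lung AD-287 and kidneys AD-441 and AD-444, and the kidneys alone spanned more than 5 log2 units (difference 3.08, SE 0.79, adjusted p 0.0017).

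Signals of inflammation and immediate-early response were higher in lung as well. Chemokines, cytokines and their receptors gave 28 of 39 higher in lung and 2 higher in kidney, with a median of 1.33. CXCL8, the main neutrophil attractant, read 10.70, 10.93, 11.16, 11.17 and 11.81 in the lungs and 6.60, 6.05, 6.30, 6.16 and 6.76 in the kidneys. No value overlapped (difference 4.78, SE 0.23, adjusted p 5.3e-16), and IL1B, a cytokine of activated macrophages, differed by 4.51 (SE 0.32). Of 27 immediate-early and heat shock genes, 21 were higher in lung and 4 in kidney (median 0.73). FOS, a transcription factor induced within minutes of a stimulus, read 13.06, 13.20, 13.18, 13.30 and 13.41 in the lungs and 8.82, 9.29, 9.75, 10.06 and 9.66 in the kidneys. FOSB was higher by 5.28 (SE 0.40), NR4A1, an orphan receptor of the same response, by 3.97 (SE 0.21) and ZFP36, which destabilises cytokine messages, by 3.58 (SE 0.21). Interferon-response genes gave 16 of 22 higher in lung and 1 in kidney, led by ISG15, a ubiquitin-like protein (2.81, SE 0.31). Among 34 genes of complement and coagulation, 20 were higher in lung and 5 in kidney; CFD, complement factor D, differed by 5.05 (SE 0.32) and the protease inhibitor A2M by 4.98 (SE 0.36).

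Globin genes were uneven. HBB, the beta chain of haemoglobin, read 12.31, 9.91, 8.38, 9.91 and 10.28 in the lungs and 5.45, 5.40, 5.32, 5.50 and 5.41 in the kidneys (difference 4.74, SE 0.41, adjusted p 9.2e-11). Lung AD-204 was the highest and lung AD-287 the lowest, and all kidneys were alike. Of the 10 globin and erythroid genes, only HBB and HBG, a gamma-type globin, were called higher in lung (4 genes without fetal lung arrays 26B and 80B). In the main fit 1 member was called higher in kidney and 7 were not called, with a list median of 0.11. Another probe set of HBB differed by 0.47 and of HBG by 0.16. Without probe sets that match several transcripts, neither HBB (difference 0.47, adjusted p 0.23) nor HBG (0.16, adjusted p 0.63) was called. The count of the list higher in lung was then 0.

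Vessel, muscle and matrix genes leaned towards lung. Of 30 endothelial genes, 21 were higher in lung and 1 in kidney (2 without lung AD-286), with a median of 0.68. LYVE1, a hyaluronan receptor of lymphatic vessels and some macrophages, read 11.51 to 12.11 in the lungs and 6.35 to 7.68 in the kidneys (difference 4.88, SE 0.31). CDH5, the cadherin that joins endothelial cells, differed by 2.08 (SE 0.30); lung AD-204 read 10.87 and the other lungs 12.09 to 12.36. EPAS1, the hypoxia-inducible factor of endothelium, was higher by 1.83 (SE 0.15; 0.43 in a dimmer probe set), and VEGFA, the chief endothelial growth factor, was not called, with a 95% interval of the difference from -0.39 to 0.03; centred on array medians it was called higher in kidney (difference -0.28). Smooth muscle and pericyte genes gave 8 of 15 higher in lung and 0 in kidney, with CNN1, the calponin of smooth muscle, at 10.94 ± 0.55 against 7.67 ± 0.30 and desmin, DES, at 8.54 ± 0.36 against 6.28 ± 0.16.

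Collagen and elastic fibre genes gave 24 of 36 higher in lung and 3 in kidney (median 0.94). FN1, fibronectin, read 11.95, 12.03, 11.99, 11.80 and 12.16 in the lungs and 8.39, 8.22, 8.73, 8.45 and 8.64 in the kidneys. The organs did not overlap (difference 3.50, SE 0.13, adjusted p 8.3e-19), and a far dimmer probe set differed by 0.43. POSTN, a matrix protein of connective tissue under load, was higher by 3.31 (SE 0.24) and the large proteoglycan VCAN by 3.20 (SE 0.26). Basement membrane genes were divided, 8 of 17 higher in lung and 5 in kidney. LAMA4, a laminin chain of vessel walls, was higher in lung by 2.19 (SE 0.23), whereas COL4A4, a chain of the type IV collagen of glomerular and alveolar basement membranes, was higher in kidney. It read 7.71, 8.23, 7.88, 7.67 and 7.57 in the lungs and 9.41, 9.76, 9.05, 9.70 and 9.03 in the kidneys (difference -1.58, SE 0.19). Its partner chain COL4A3 differed by -1.46 (SE 0.26). A dimmer probe set of each showed less, 0.01 for COL4A4 and -0.29 for COL4A3.

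Cell division genes were higher in lung, with 24 of 34 mitotic genes called in that direction, 0 in the other and a median of 0.81. CCNB1, cyclin B1, read 9.15 in lung AD-204, 7.70 to 8.48 in the other lungs and 5.90 to 6.30 in the kidneys (difference 2.27, SE 0.28). CDCA8, a subunit of the chromosomal passenger complex, differed by 2.33 (SE 0.30), and a dimmer probe set of it by -0.24. KRT19, a keratin of simple epithelia, was higher in lung by 3.14 (SE 0.24), the highest difference of 20 measured genes of the epithelial cytoskeleton. That list was divided, with 9 higher in lung, 7 higher in kidney and a median of 0.23.

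On the kidney side, proximal tubule genes had the lowest median of the lists. Of 28 measured members, 24 were called higher in kidney and 1 in lung, a median of -3.80. HAO2, a peroxisomal oxidase of hydroxy acids, had the largest measured difference of all 9155 genes. It read 3.94, 4.16, 4.17, 4.48 and 4.48 in the lungs and 12.63, 12.62, 12.67, 12.65 and 12.72 in the kidneys, with the lungs near the bottom of the scale (difference -8.41 log2, SE 0.25, adjusted p 7.8e-21). SLC22A8, a carrier that takes organic anions and drugs from blood, read 4.72, 4.56, 3.83, 4.46 and 4.37 in the lungs and 11.90, 12.20, 12.08, 12.34 and 11.36 in the kidneys (difference -7.58, SE 0.22). The kidneys were uniform apart from a lower value in kidney AD-444, and the same array was lowest for the related carrier SLC22A6, at 10.17 against 11.35 to 11.64 in the other kidneys. CUBN, a receptor for filtered proteins, differed by -6.63 (SE 0.38), the cystine carrier subunit SLC7A9 by -7.52 (SE 0.70) and PDZK1, a scaffold of brush-border carriers, by -6.48 (SE 0.58). In PDZK1 lung AD-299 read 7.95 and the other lungs 5.28 to 5.93. Of genes known from the brush border, the protocadherin CDHR2 differed by -7.03 (SE 0.29; -3.03 in a dimmer probe set) and villin, VIL1, by -3.93 (SE 0.22). CDHR2 had the lowest difference of the epithelial cytoskeleton list, which was divided between the organs as given above.

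Genes of the later nephron segments were also higher in kidney. Of 13 genes of the loop of Henle and distal tubule, 11 were higher in kidney and 0 in lung (median -1.65). UMOD, the most abundant protein of normal urine and a product of the thick ascending limb, read 5.21, 6.10, 6.08, 5.93 and 6.08 in the lungs and 13.22, 12.99, 13.26, 13.21 and 12.94 in the kidneys. The kidneys were tightly grouped far above every lung (difference -7.25, SE 0.16, adjusted p 7.9e-24). SLC12A3, the thiazide-sensitive salt carrier of the distal tubule, differed by -4.51 (SE 0.20) and CASR, the calcium sensor, by -2.98 (SE 0.26). SLC12A1, the loop diuretic target that marks the same limb as UMOD, read 3.62 to 3.99 in the lungs and 3.96 to 4.15 in the kidneys and was not called (95% interval -0.43 to 0.05; after centring on array medians it was called at -0.29). Both organs read near the bottom of the scale for SLC12A1, so its true difference may be larger. EGF, which the same segments are known to make, was likewise not called, at 5.53 ± 0.07 and 5.41 ± 0.16.

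Collecting duct genes gave 12 of 19 higher in kidney and 2 in lung. HSD11B2, which shields the mineralocorticoid receptor from cortisol, read 5.04 to 5.40 in the lungs and 10.90 to 11.06 in the kidneys (difference -5.81, SE 0.16). SLC4A9, an anion exchanger of intercalated cells, differed by -5.38 (SE 0.16). The largest difference of the list towards lung was 4.03, that of the water channel AQP4. AQP3, another water channel, differed by -0.24 and was not called, and AVPR2 differed by -0.09. The epithelial sodium channel was split by subunit: SCNN1G was higher in kidney by 1.64 log2 (10.47 ± 0.19 against 8.83 ± 0.17), SCNN1A was called with a difference of -0.43 (not without lung AD-204 or AD-297, adjusted p 0.058 and 0.052) and SCNN1B was higher in lung by 0.60. Of 10 measured podocyte and glomerular genes, 4 were higher in lung and 1 in kidney. The member higher in kidney was PLA2R1, a podocyte receptor (-0.82, SE 0.19), whereas SYNPO, an actin-binding protein of podocyte foot processes that other contractile cells also use, was higher in lung by 1.76 (SE 0.25), with a second probe set at 0.23. PLA2R1 was not called after averaging its probe sets.

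Blood pressure genes were called on both sides at shares near those of all genes, and most genes of mineral balance were higher in kidney. Of 16 genes of the renin-angiotensin system and blood pressure, 5 were higher in lung and 5 in kidney, where all genes gave 29.4% and 23.6%. KLK1, tissue kallikrein, averaged 12.62 ± 0.28 in kidney and 5.58 ± 0.48 in lung (difference -7.04, SE 0.21), and ENPEP, which trims angiotensin II, differed by -5.63 (SE 0.15). In lung, the vasoconstrictor peptide endothelin, EDN1, was higher by 2.50 (SE 0.36) and its receptor EDNRA by 2.42 (SE 0.19). AGT, the precursor of angiotensin, was higher in lung by 1.50 (SE 0.53, adjusted p 0.019). Of 15 genes of vitamin D, phosphate and calcium handling, 11 were higher in kidney and 2 in lung, with a median of -2.61. SLC34A1 and SLC34A2, both sodium-phosphate carriers, stood on opposite sides: the renal form SLC34A1 differed by -3.84 (SE 0.20) and SLC34A2, known from type II cells, by 1.28 (SE 0.14). GC, the vitamin D carrier of plasma, read 9.07 in lung AD-204, 6.64 to 7.06 in the other lungs and 12.11 to 12.67 in the kidneys.

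Mitochondrial and synthetic metabolism separated the organs broadly. Of 25 genes of fatty acid oxidation and ketones, 24 were higher in kidney and 0 in lung (median -1.37), and of 19 genes of the tricarboxylic acid cycle, 18 were higher in kidney and 1 in lung (median -1.18). Oxidative phosphorylation gave 47 of 52 higher in kidney and 0 in lung with a smaller median of -0.62. SDHA, the flavoprotein of respiratory complex II, read 9.36, 9.49, 9.27, 9.20 and 9.18 in the lungs and 10.82, 11.05, 10.90, 11.11 and 10.85 in the kidneys (difference -1.65, SE 0.15). PPARA, the lipid-sensing receptor that drives fatty acid oxidation, differed by -2.60 (SE 0.29) and PPARGC1A, a coactivator of mitochondrial genes, by -3.66 (SE 0.35).

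Gluconeogenesis and fructose use gave 14 of 17 higher in kidney and 1 in lung, with a median of -2.58. PCK1, which commits oxaloacetate to glucose synthesis, read 5.97, 5.85, 5.04, 6.27 and 6.17 in the lungs and 13.24, 13.37, 13.25, 13.52 and 13.37 in the kidneys (difference -7.49, SE 0.36, adjusted p 4.0e-16). FBP1, the next committed enzyme, varied among kidneys, at 10.86, 11.39, 9.98, 10.55 and 8.78, with kidney AD-444 lowest and still above the lungs at 6.70 to 7.31. G6PC1, which frees glucose at the end of the path, differed by -3.91 (SE 0.22), and a probe set near the bottom of the scale by -0.26. Glycolysis gave 7 of 20 higher in lung and 6 in kidney, not far from the 29.4% and 23.6% of all genes. HK3, a hexokinase of myeloid cells, was higher in lung by 2.41 (SE 0.12), and GAPDH, often used as a reference gene, was higher in kidney by 1.17 log2 (12.40 ± 0.48 against 11.23 ± 0.38). Amino acid metabolism gave 37 of 45 higher in kidney and 0 in lung. HPD and HGD, both of tyrosine breakdown, differed by -7.17 (SE 0.82) and -6.86 (SE 0.77), and ASS1, which makes argininosuccinate for arginine synthesis, by -4.12 (SE 0.46).

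Several of these kidney genes are also known from liver. BBOX1, the last enzyme of carnitine synthesis, read 4.42 to 5.42 in the lungs and 12.78 to 13.17 in the kidneys (difference -8.13), and -1.36 in a dimmer probe set. Its standard error was 0.80 in the fit to all 30 arrays and 0.16 in a fit to the 10 adult arrays alone; the former pools the spread of all 6 groups. Of 21 genes listed as liver markers, 9 were higher in kidney and 2 in lung, the latter 4 in the fit to the 10 adult arrays and 1 after median centring or without single arrays (lungs AD-204, AD-286, AD-287, AD-297 or AD-299, kidneys AD-441, AD-442 or AD-444). F2, prothrombin, averaged 11.96 ± 0.09 in kidney and 6.29 ± 0.46 in lung, with a dimmer probe set at -0.18, and TTR, the thyroxine carrier transthyretin, 11.03 ± 0.23 and 6.31 ± 0.53. Some defining products of liver were not called: ALB, albumin, averaged 10.97 ± 0.30 in kidney and 10.80 ± 0.11 in lung, and AHSG, fetuin, 10.38 ± 0.15 and 10.64 ± 0.12. Their probe sets disagreed: the dimmer ones named for ALB differed by -0.89 to 4.68 and those named for AHSG by -0.03 to 5.37. With the mean of a gene's probe sets, ALB was called higher in lung by 0.96 and AHSG by 1.25, and array weights or centring gave ALB as higher in kidney (-0.23 and -0.27). HP, haptoglobin, was higher in lung by 5.13 (SE 0.55). The mean level of the liver list ran from 8.08 to 8.30 in the kidneys and from 6.67 to 6.80 in 4 lungs, with 7.45 in lung AD-204, where APOH read 8.58 against 5.62 to 6.31 in the other lungs. The part of liver-type transcripts in the values of lung AD-204 was not tested.

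Of 46 enzymes that handle foreign and reactive compounds, 14 were higher in lung and 17 in kidney, where all genes gave 29.4% and 23.6%; the former share is near that of all genes. CYP4A11, a cytochrome P450 of fatty acid hydroxylation, read 4.87, 4.73, 5.15, 5.23 and 5.16 in the lungs and 12.10, 12.40, 12.32, 12.56 and 12.38 in the kidneys (difference -7.32, SE 0.63, adjusted p 7.3e-11). AKR1C3, an aldo-keto reductase of steroids and prostaglandins, differed by -5.74 (SE 0.35). PON1 and CYP4B1, described above, were the far members of the list on the lung side. Of 17 genes known to respond to low oxygen, 5 were higher in lung and 6 in kidney, the former again near the share of all genes. EGLN3, which marks hypoxia-inducible factors for breakdown, differed by -2.62 (SE 0.16) and NDRG1, a stress-response protein, by -2.25 (SE 0.13), whereas ANGPTL4, an inhibitor of lipoprotein lipase, was higher in lung by 1.65 (SE 0.14).

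**Figure D3:**
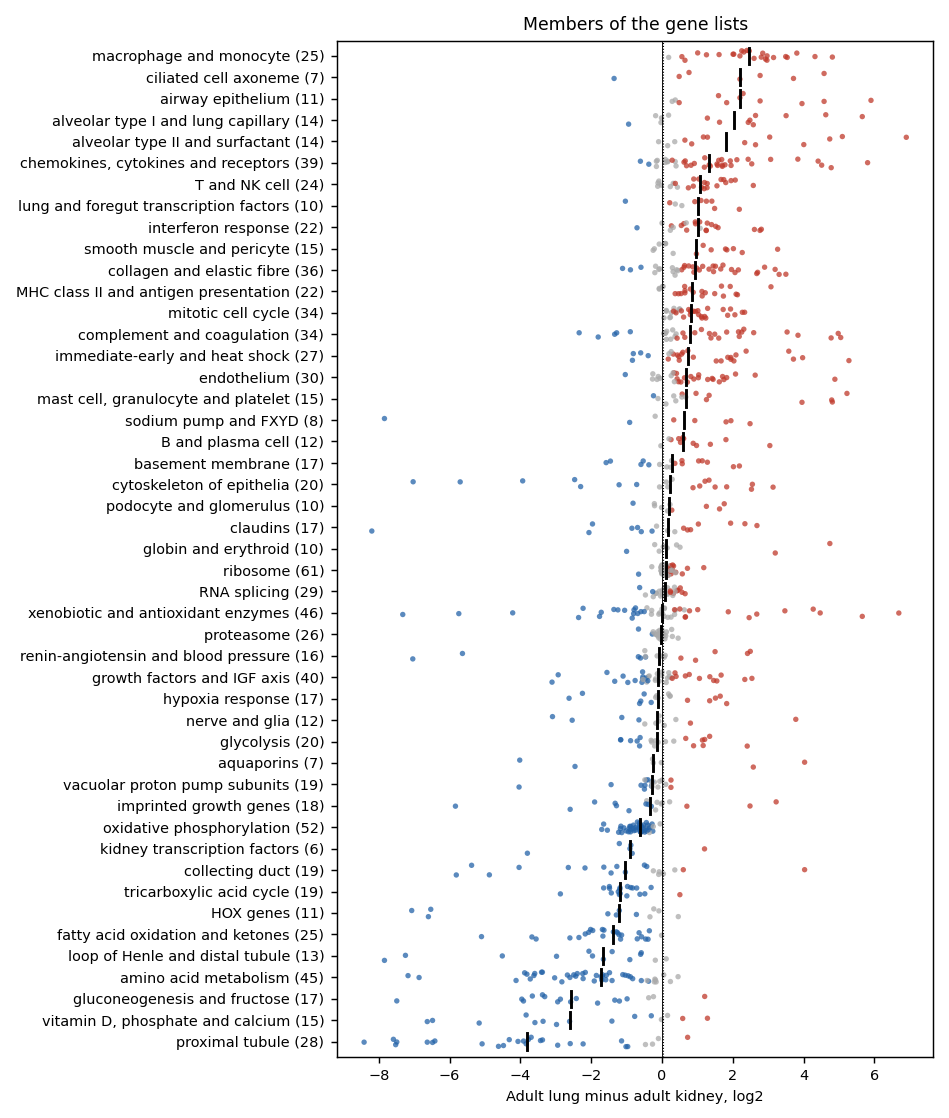
Difference of adult lung minus adult kidney (horizontal axis, log2) for each measured member of the gene lists with at least 6 measured genes, with the number measured in parentheses. Red points are called higher in lung, blue higher in kidney and grey not called; thick bars are medians and the dotted line is the median of all genes, 0.04. Macrophage genes have the highest median, 2.47, and proximal tubule genes the lowest, -3.80.

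Regulators of organ identity mostly followed their organ. Of 10 measured lung and foregut transcription factors, 7 were higher in lung and 1 in kidney. GATA6, a zinc-finger factor of lung endoderm, read 12.15 to 12.29 in the lungs and 9.76 to 10.43 in the kidneys (difference 2.19, SE 0.12), and SOX2, a factor of airway progenitors, was higher by 1.10 (SE 0.16). Of 6 kidney factors, 5 were higher in kidney and 1, IRX3, in lung. EMX2, needed for the urogenital system, differed by -3.80 (SE 0.23), PAX8 by -1.21 (SE 0.15) and HNF4A, a master factor of proximal tubule and liver, by -0.90 (SE 0.13).

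HOX genes, which mark position along the body axis, were mostly higher in kidney. Of 11 measured members, 7 were higher in kidney and 0 in lung. The organs did not overlap for HOXA10, a posterior member, which read 3.69, 3.87, 3.72, 3.74 and 3.66 in the lungs and 10.97, 10.93, 10.95, 10.96 and 10.21 in the kidneys (difference -7.07, SE 0.37, adjusted p 1.8e-15). HOXD10 differed by -6.60 (SE 0.20) and HOXA9 by -6.53 (SE 0.32). Other called members differed less, HOXC6 by -1.53, HOXC5 by -1.29, HOXB4 by -1.20 and HOXB3 by -0.72. HOXA5, which lies in the same cluster as HOXA9 and HOXA10 and is known for its role in lung formation, averaged 11.72 ± 0.05 in lung and 11.80 ± 0.03 in kidney (95% interval of the difference -0.45 to 0.28), and HOXB7 and HOXC13 were not called either, though both were higher in kidney after median centring (-0.44 and -0.33). HOXA4 fell just short of the threshold (difference 0.46, SE 0.20, adjusted p 0.050), though its lungs all lay above its kidneys, at 8.94 ± 0.10 against 8.48 ± 0.07. In several other limma fits it was called higher in lung, so that the list count higher in lung was 1. Among these were the fits to the 10 adult arrays (adjusted p 0.00031), without fetal lung arrays 26B and 80B (1.1e-05) and with array weights (7.3e-05).

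Gene families with a common function split between the organs. Among 7 measured water channels, AQP4 (4.03, SE 0.28) and AQP5 were higher in lung, AQP7 (-4.02, SE 0.33) and AQP11 (-2.46, SE 0.40) were higher in kidney, and AQP1, AQP3 and MIP were not called. After median centring, AQP1 and AQP3 were called higher in kidney (-0.37 and -0.34). Of 17 genes of claudins and partner junction proteins, 7 were higher on each side. CLDN2, which makes the leaky junctions of proximal tubule, read 4.55, 4.05, 3.63, 3.34 and 3.57 in the lungs and 11.90, 12.05, 12.07, 11.96 and 12.13 in the kidneys, the second largest difference of all genes (-8.20, SE 0.35). CLDN18, the claudin of alveolar epithelium, was higher in lung by 2.68 (SE 0.31), with lung AD-297 at 7.02 and the other lungs at 5.31 to 6.02, and CLDN3 by 2.34 (SE 0.19). CLDN16, which passes magnesium in the thick ascending limb, differed by -2.06 (SE 0.23), and another probe set of it by -0.555.

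The sodium pump's small FXYD regulators were divided as well. FXYD2, the gamma subunit of the renal pump, averaged 5.17 ± 0.48 in lung and 13.01 ± 0.32 in kidney (difference -7.84, SE 0.27), while FXYD1, FXYD5 and FXYD6 were higher in lung by 2.49 (SE 0.26), 1.95 (SE 0.12) and 1.81 (SE 0.12). FXYD5 was not called without probe sets that match several transcripts. Of the beta subunits, ATP1B1 was higher in kidney by 0.91 log2 (13.56 ± 0.06 against 12.65 ± 0.17) and ATP1B3 higher in lung by 0.93. Vacuolar proton pump subunits gave 9 of 19 higher in kidney and 2 in lung, the latter 0 after median centring and 1 without any single one of lungs AD-204, AD-287, AD-297 and AD-299 and kidneys AD-432, AD-434 and AD-442. The large differences were those of subunits known from intercalated cells: ATP6V0A4 read 11.55 to 11.73 in the kidneys and 6.95 to 7.36 in 4 lungs, with 9.15 in lung AD-287, and ATP6V1B1 differed by -1.44 (SE 0.19). Its widely expressed counterpart ATP6V1B2 was not called (95% interval -0.09 to 0.30).

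**Figure D4:**
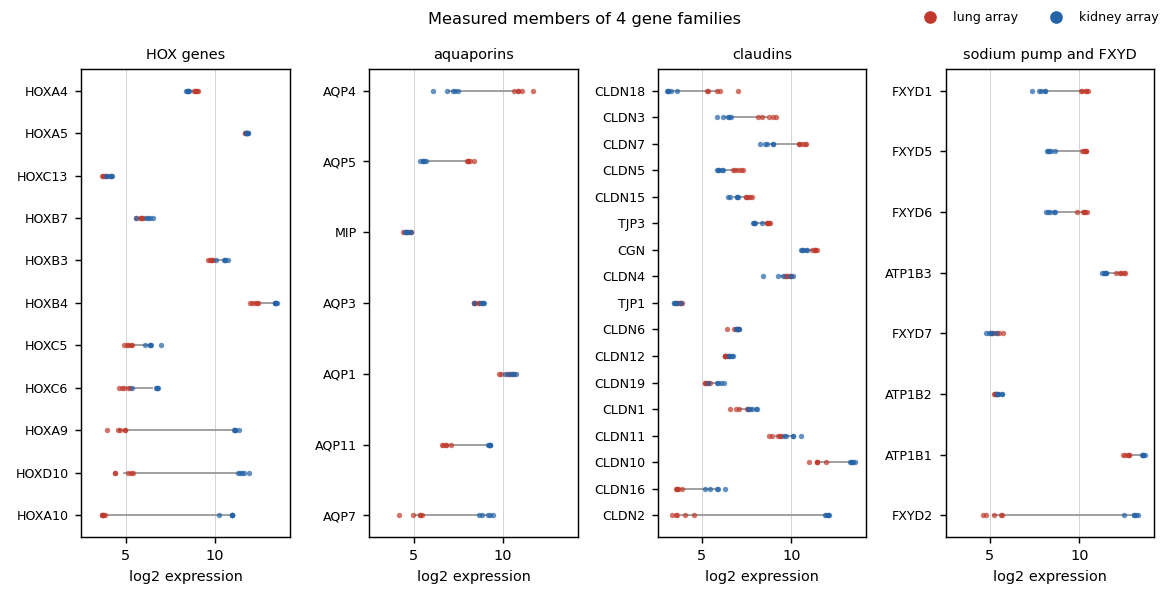
Log2 expression in the 5 adult lung arrays (red) and 5 adult kidney arrays (blue) of all measured members of the HOX, aquaporin, claudin, and sodium pump and FXYD lists, each ordered by the difference; grey lines join the 2 means. HOXA10, AQP7, CLDN2 and FXYD2 sit at the bottom with kidney far to the right, and AQP4, CLDN18 and FXYD1 at the top with lung to the right.

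Growth genes were divided. Of 18 imprinted genes, 9 were higher in kidney and 3 in lung (median -0.34). DLK1, a membrane protein that holds back differentiation, read 6.89, 5.83, 6.76, 5.93 and 6.12 in the lungs and 12.32, 12.26, 12.49, 11.98 and 11.64 in the kidneys (difference -5.83, SE 0.25, adjusted p 2.0e-17). MEG3, the long non-coding RNA of the same imprinted domain, differed by -1.90 (SE 0.19) and PEG10 by -2.59 (SE 0.15). In the other direction, NNAT, a small membrane protein, was higher in lung by 3.23 (SE 0.34) and MEST by 2.49 (SE 0.19), while 3 other probe sets of MEST differed by 0.36 to 0.79. IGF2, the fetal growth factor, was not called (7.98 ± 0.62 in lung, 8.41 ± 0.73 in kidney, 95% interval -1.04 to 0.18). Of the binding proteins of the IGF system, IGFBP2 and IGFBP5 were higher in kidney, IGFBP2 at -3.10 (SE 0.52) and IGFBP5 at -2.93 (SE 0.29). Of all 40 genes of growth factors and the IGF axis, 12 were higher in lung and 13 in kidney, against 29.4% and 23.6% of all genes. BMP5, a bone morphogenetic protein, was higher in lung by 2.34 (SE 0.27). For IGFBP2, kidney AD-444 read 10.37 and the other kidneys 11.95 to 12.28.

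General cell machinery had small differences. Of 61 ribosomal protein genes, 18 were higher in lung and 1 in kidney, with a median of 0.10; the share higher in lung is near the 29.4% of all genes. The count higher in lung was 9 with arrays centred on their medians, 8 in the fit to the 10 adult arrays and 11 without kidney AD-444. The proteasome gave 2 of 26 higher in kidney and 0 in lung (7 and 0 after the same centring, 5 and 0 without kidney AD-444), and RNA splicing 8 of 29 higher in lung and 2 in kidney, the latter 5 after centring and 1 without lung AD-286. The splicing share higher in lung is also near that of all genes. Lists of other tissues that a piece could hold were mixed, with 7 of 13 fat genes higher in lung and 0 in kidney and 4 of 15 adrenal genes on each side. The adrenal shares are near those of all genes. CD36, a fatty acid receptor of fat cells, capillaries and macrophages, was higher in lung by 2.73 (SE 0.21) and FABP4, the fatty acid carrier of fat cells and capillaries, by 2.40 (SE 0.42), with kidneys from 5.50 to 8.67. Among the adrenal genes, CYP17A1, a steroid hydroxylase, was higher in lung by 3.31 (SE 0.34) and STAR, the cholesterol carrier of steroid cells, by 2.14 (SE 0.23), while CYP11A1, which starts steroid synthesis, averaged 3.88 in lung and 3.83 in kidney. Both CYP11A1 readings are near the bottom of the scale. The largest difference of the adrenal list lay on the kidney side, that of DLK1 at -5.83. Of 12 genes of nerve and glia, STMN2, a tubulin-binding protein of neurons, was higher in lung by 3.78 (SE 0.43) and UCHL1, an ubiquitin hydrolase, was higher in kidney by 3.09 log2 (10.27 ± 1.23 against 7.18 ± 0.75), whereas SOX10 and GFAP, which define glia and were named after their values were seen, were not called.

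The organ difference of adults was then set against that of the 10 arrays taken at 10 weeks, 5 per organ, which share no array with the adults. Across the 9155 genes the 2 differences correlated at 0.942, and the adult and fetal differences at 0.574; genes are not independent replicates, and each correlation is a description. Genes called at both ages with the same sign numbered 3655, which is 75.3% of the adult calls and 79.7% of the 4585 calls at 10 weeks, and 16 genes were called with opposite signs. The difference between the 2 organ differences was called in 199 genes (2.17%), 137 positive and 62 negative. That count differed between fits: it was 332 with the animal number as a random block, 606 without the fetal lung arrays 26B and 80B, and 138 to 238 when an adult array was left out (without lung AD-286 the negative ones were 41), while 1524 genes had an unadjusted p under 0.05.

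DLK1 had the most negative change of the 199 genes. It averaged 12.61 in fetal lung, 9.92 ± 0.71 at 10 weeks and 6.30 ± 0.49 in adult lung, and 13.13, 12.33 ± 0.17 and 12.14 ± 0.34 in kidney at the same ages, so its organ difference was -2.42 at 10 weeks and -5.83 in adults (change -3.42, SE 0.35, adjusted p 5.4e-07). PEG10, IMPACT, CDKN1C and MAGEL2 were the other imprinted genes called, each in the same direction, so that 5 of 18 were negative and 0 positive. Over all 9155 genes 62 were negative and 137 positive. The list was chosen with earlier results of these data known and was not tested as a set. IMPACT was not called (adjusted p 0.052 to 0.078) when lungs AD-286 or AD-297 or kidneys AD-441, AD-442 or AD-444 were left out singly, and CDKN1C was not called after averaging its probe sets (adjusted p 0.097). In MAGEL2 the lung was higher at 10 weeks by 1.30, and the adult difference was 0.01 (95% interval -0.37 to 0.40). In other negative changes the kidney means differed between the ages: KCNE1, a potassium channel subunit, averaged 8.11 ± 0.58 in kidney at 10 weeks and 10.41 ± 0.26 in adults with 5.53 and 5.52 in lung (change -2.32, SE 0.27), and MYBPC1, a myosin-binding protein, averaged 6.39 ± 0.70 and 9.46 ± 0.85 in kidney (change -2.78, SE 0.44). NUDT11, a phosphohydrolase, averaged 5.61 ± 0.56 in lung at 10 weeks and 3.52 ± 0.31 in adult lung (change -2.60, SE 0.41), and a dimmer probe set differed by 0.02 between the adult organs. SERPINA14, a serpin known as a uterine protein, averaged 8.92 at 10 weeks and 10.75 in adults in kidney, with 5.57 and 5.25 in lung (change -2.15, SE 0.50). ADH4, an alcohol dehydrogenase, averaged 6.88 and 8.77 in kidney at the same ages, with 10.70 and 10.25 in lung (change -2.34, SE 0.62, adjusted p 0.042). It was called only narrowly: without any single one of the 5 lungs other than AD-287, or of the 5 kidneys other than AD-434, its adjusted p was 0.052 to 0.075. SERPINA14 was not called without its multi-transcript probe set (-1.46, adjusted p 0.064).

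Positive changes were the more frequent. CCL26, an eosinophil-attracting chemokine, averaged 9.71 ± 0.33 in lung at 10 weeks and 12.05 ± 0.20 in adult lung, while kidney averaged 12.16 and 12.08, an organ difference of -2.44 against -0.03 (change 2.41, SE 0.20, adjusted p 1.7e-08). AQP3, the water channel, averaged 7.70 at 10 weeks and 8.51 in adults in lung, and 9.81 and 8.75 in kidney (change 1.87, SE 0.19). CCN5, ADAMTS4 and S100A1 were higher in lung at both ages and more so in adults, with changes of 2.47 (SE 0.34), 2.41 (SE 0.37) and 2.12 (SE 0.31). HBB, with its spread among adult lungs, changed by 3.05 (SE 0.58), but by 0.01 (adjusted p 0.99) without multi-transcript probe sets, and BOLA-DQB1, with adult SDs of 1.17 in lung and 2.08 in kidney, by 3.45 (SE 0.90, adjusted p 0.039). BOLA-DQB1 was not called without the multi-transcript probe sets (0.53), nor when lungs AD-204, AD-286, AD-297 or AD-299 or kidneys AD-432, AD-434 or AD-442 were left out singly (adjusted p 0.055 to 0.087). Some of the largest adult differences were as large at 10 weeks: HTRA4 differed by 8.08 then and 7.80 in adults, SFTPC by 6.66 and 6.90, and HAO2 by -8.56 and -8.41.

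**Figure D5:**
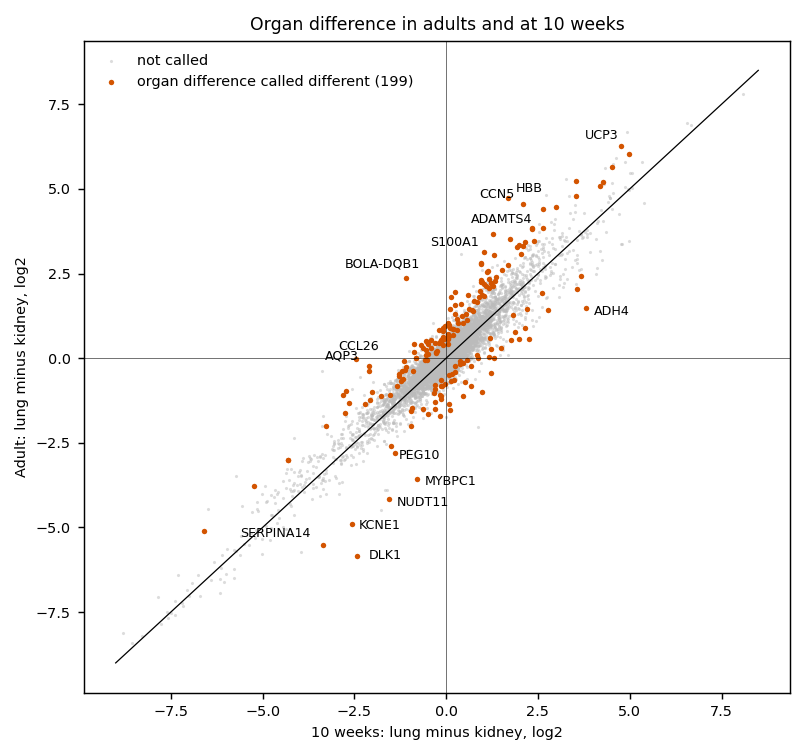
Lung minus kidney in adults (vertical axis, log2) against lung minus kidney at 10 weeks (horizontal axis, log2) for 9155 genes, with the line of equality. Orange points are the 199 genes whose organ difference was called different between the ages, and 15 of them are labelled; DLK1 lies farthest below the line.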

How the data were processed

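Frozen lung and kidney of sheep were measured on 30 Affymetrix bovine arrays, and the 10 adult ones are compared here. The authors deposited log2 expression values per probe set, made with RMA and Partek per the submitters' processing notes; the sources used here give no version of either. RMA subtracts background, makes arrays alike by quantiles and summarises probes, so shifts common to most genes are removed. The log base was taken from the range and near-equal medians of the values. No count or depth stands behind an array value, and the number of arrays limits the precision.

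Of 24128 probe sets, GEO's platform annotation gave 13318 a single gene symbol, 86 several and 10724 none; only the first were used. For each of the 9155 genes, the brightest probe set, by the mean of all 30 arrays, was taken. limma 3.58.1 (R 4.3.3) fitted the means of the 6 groups to all 30 arrays, which share an estimate of spread, and p-values were adjusted over the 9155 genes by the Benjamini-Hochberg method. A gene was called at an adjusted p of 0.05 or less, and differences above 2-fold were tested with limma's treat. The test of the organ difference in adults minus that at 10 weeks came from the same fit. The scripts were tested on simulated data.

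The members, gene lists and tests were chosen with earlier results of these data known, and no list was tested as a set. Named genes were those of a written panel, the 12 largest non-overlapping differences in each direction, up to 4 of the largest called members of each list, and the 6 largest changes in each direction against 10 weeks. Among the 12 and the 6, symbols that are only locus, clone or open reading frame identifiers were passed over. MYL1, MYH1, SOX10, GFAP, IL12A, IL18, KLRJ1 and JCHAIN were added after their values were seen. Which of the genes so selected are described was decided with their values in view, and the HOX, aquaporin, claudin and FXYD families were described whole for the same reason.

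Adult lung and kidney titles share 0 animal numbers. At 10 weeks 4 numbers are shared, and the deviations of same-numbered arrays from their group means correlated at 0.101, 0.115, 0.149 and 0.204, so the animal number was used as a random block (within-animal correlation 0.218) in an alternative fit. Other alternatives changed the arrays in the fit, the filter on dim genes, the probe set rule, the normalization, the variance model and the array weights, and left out each adult array in turn.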

Additional observations from a re-analysis of the deposited data

Results flagged for a closer look

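A single array stood far from the other 4 of its organ in 28 of 374 gene and organ pairs checked (7.5%), by Dixon's test of the gap over the range. The nominal rate of that test is about 1 in 20. The genes checked were chosen with their values in view, so the share is only a description. The array was kidney AD-444 in 8 of the 187 genes checked and lung AD-204 in 7. Over all 9155 genes the same rule flagged kidney AD-444 in 4.75% and lung AD-204 in 1.1%. Kidney AD-444 was low for SLC22A6 (10.17), SLC7A9 (11.89), HOXA10 (10.21), HOXC6 (5.37), IGFBP2 (10.37), EGLN3 (8.54) and AQP3 (8.35), and high for HOXA9 (11.34, against 11.06 to 11.14 in the other kidneys). Lung AD-204 was high for APOH (8.58), GC (9.07) and HBG (9.98), which are products of liver or red cells, and low for CDH5 (10.87), IL1B (10.04), IGFBP2 (8.07) and UMOD (5.21). Lung AD-287 was high for LPO (11.77), ACTA1 (9.84), ATP6V0A4 (9.15) and, at the bottom of the scale, CLDN16 (3.89), and low for BOLA-DQA1 (8.61). Lung AD-297 was high for MAGEL2 (8.22) and low for STMN2, the neuronal gene, at 9.72 against 11.41 to 12.03. Lung AD-299 was high for PDZK1 (7.95) and low for PSMB8 (12.62), and lung AD-286 was low for GFAP (4.88). Among the kidneys, AD-442 was low for AHSG (10.13), AD-441 high for HK3 (5.82) and AD-432 high for CCN5 (4.48), each by less than 0.5 log2.

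The organ difference of 33 described genes was called different between adults and 10 weeks by the test of that difference in limma. Where the change was positive, lung was higher relative to kidney in adults than at 10 weeks. This was so for the leukocyte and inflammation genes CXCR1 (1.68), FCGR2B (1.47), HK3 (1.06), CXCL8 (1.23), ISG15 (1.87), CCL26 (2.41) and BOLA-DQB1 (3.45). Other immune genes changed the opposite way, IL12A (-1.36), KLRJ1 (-1.13), IL18 (-0.67) and JCHAIN (-0.60), named after their values were seen. IL18 was not called without any single one of lungs AD-204, AD-286 and AD-299 and kidneys AD-432, AD-434, AD-441 and AD-444, nor JCHAIN without any lung or without kidneys AD-432, AD-441, AD-442 or AD-444 (adjusted p 0.051 to 0.096). With adult and 10 week arrays alone, IL18 (0.069), JCHAIN (0.053), IMPACT (0.057) and BOLA-DQB1 (0.053) were not called, nor was KLRJ1 with array weights (0.061) or JCHAIN after median centring (0.055). Positive changes were also called in the epithelial genes SFTPD (0.91), LPO (1.07), CYP4B1 (1.13), CLDN3 (1.17) and AQP3 (1.87), and in CCN5 (2.47), ADAMTS4 (2.41), POSTN (1.23) and DES (0.94) of matrix and muscle. S100A1 (2.12), UCP3 (1.51) and HBB (3.05) completed the positive ones; for HBB the change was 0.01 (adjusted p 0.99) without multi-transcript probe sets, and for BOLA-DQB1 it was 0.53 (adjusted p 0.20). The changes were negative for the imprinted genes DLK1 (-3.42), MAGEL2 (-1.28), PEG10 (-1.10), IMPACT (-0.99) and CDKN1C (-0.59), and for MYBPC1 (-2.78), NUDT11 (-2.60), ADH4 (-2.34), KCNE1 (-2.32) and SERPINA14 (-2.15). CXCL8 and POSTN lay close to the threshold, with adjusted p of 0.044 and 0.049. CXCL8 was not called with adult and 10 week arrays alone (0.057) or after median centring (0.064), and POSTN not after repeated quantile normalization (0.063) or median centring (0.055). CXCL8 was not called without any single one of lungs AD-286, AD-287, AD-297 and AD-299 and kidneys AD-434, AD-441 and AD-442 (adjusted p 0.053 to 0.083), nor POSTN without lungs AD-204, AD-286 or AD-299 or kidneys AD-432, AD-434, AD-441, AD-442 or AD-444 (0.053 to 0.103). SFTPD was not called without lung AD-286 or kidney AD-444 (adjusted p 0.052 and 0.063), nor CXCR1 without lung AD-286 (0.053).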

How the results depend on the processing

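The 4853 genes called between the adult organs numbered 3961 to 4850 in common, with the same sign, in each of the other settings without a fold margin, and 4518 to 4731 were called when an adult array was left out. The positive calls numbered 2502 to 2669 and the negative calls 2016 to 2148 in those fits. With a 2-fold margin 1018 were called, 579 higher in lung and 439 in kidney, by construction of the test. Centring arrays on their medians gave 2202 higher in lung and 2715 in kidney. No paired analysis was possible because the titles of adult lungs and adult kidneys share no animal number; with the animal number as a random replicate block, 4848 genes were called between the adult organs.

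The count of changes against 10 weeks differed widely between settings. The 199 calls (137 positive, 62 negative) became 332 (218 and 114) with the random replicate block, 606 (393 and 213) without fetal lung arrays 26B and 80B, and 511 (324 and 187) with array weights, which gave kidney AD-444 the weight 0.311. With adult and 10 week arrays alone 98 were negative. A 2-fold margin left 2, with 1 in each direction, CCL26 and DLK1. Leaving out an adult array gave 138 to 238 calls, 97 to 172 positive and 41 to 84 negative, the lowest of each without lung AD-286. All 199 were also called, with the same sign, with the block and without 26B and 80B. The cause of these shifts was not tested.

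ALB turned from -0.17 to 0.96 with the mean of all its probe sets; the cause was not tested. Leaving out the dimmest 25% of genes lowered list counts because fewer members were tested. Counts of 1 or 2 members in the minor direction of a list moved by 1 or 2 under several settings.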
